A study of Mus musculus with 18 samples.

Results

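The ERVL loci were the transposable element (TE) copies that the locus-level count table of the rRNA-depleted libraries assigned to the family ERVL, with the related family ERVL-MaLR left out. They numbered 118581 of the 3725827 TE loci listed, in 113 subfamilies. Their level was set side by side in C3H/10T1/2 mesenchymal progenitor cells (MPCs) with and without ATRX, a chromatin remodeler that with DAXX deposits histone H3.3. C3H/10T1/2 is an established line of mouse embryo cells that can form fat, bone, cartilage and muscle. The WT cells had received the Cas9 vector with no guide RNA, and the Atrx knockout cells were 2 clones, G7 made with the guide sg5 and B10 made with the guide sg6, called sg5 and sg6 here. Each of the 3 groups had 3 rRNA-depleted and 3 polyA-selected libraries of undifferentiated cells. Each knockout guide was represented by 1 clone, so that an effect of the guide's clone and an effect of Atrx loss cannot be told apart within a clone. The paper selected 1 isogenic WT control, so that a trait of that line would show against both clones. Where both clones differ from WT, such a trait and Atrx loss cannot be told apart either. Nothing in the sources said that replicates were separate cultures, so that p-values measured the spread between libraries alone.

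ERVL elements are endogenous retroviruses without an envelope gene that spread through mammalian genomes before and after the rodents arose. A full copy has an internal region that encodes Gag and Pol proteins, flanked by long terminal repeats (LTRs) that hold the promoter. The mouse member MERVL, whose internal region is annotated as MERVL-int and whose LTR is MT2_Mm, is transcribed in the 2-cell embryo (2C) and in the rare 2C-like cells of embryonic stem cell cultures, where the factors DPPA2, DPPA4 and DUX act upstream of it. In other cells these elements are kept low by H3K9 methyltransferases, LSD1, TRIM28, CAF-1 and further repressors.

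The rRNA-depleted libraries held 20135336 to 33187136 counts over genes and TEs, and the ERVL loci took 28306 to 74415 of them. Atrx itself (chromosome X, 105797615 to 105929403, minus strand, GRCm38) was lower in every knockout library, at 192 to 231 CPM (counts scaled to a common library total) in WT and 60.8 to 112 CPM in the knockouts, with log2 fold changes of -1.39 in sg5 and -1.31 in sg6 (adjusted p = 0.00138 and 0.00227). WT replicate 3 stood apart from the other libraries, since TEs took 15.5% of its counts against 11.8% and 12.3% in the other WT libraries and 10.4% to 12.1% in the knockouts. The ERVL, MERVL-int and MT2_Mm sums, the counts of called loci and the calls of the shared loci are also given without it. The 10 mesenchymal markers summed to 4105 to 5254 CPM in WT, 6351 to 8660 CPM in sg5 and 6941 to 8705 CPM in sg6, whereas the 7 pluripotent cell markers, Pou5f1 and Nanog among them, summed to at most 0.334 CPM in rRNA-depleted libraries, where Zfp42 and Esrrb had no count. Single mesenchymal markers went both ways, with log2 fold changes of the 9 tested from -1.82 to 2.07 in sg5 and from -0.64 to 6.43 in sg6. The part of all these markers in the results below was not tested. The 8 markers of other lineages summed to 1.17 to 2.36 CPM in rRNA-depleted libraries, of which Cd68 was the only gene that passed the low-count filter. In bulk RNA fewer cells with a transcript and less transcript per cell cannot be told apart.

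Summed over all loci, ERVL RNA was not shown to differ between WT and knockout cells. ERVL loci took 0.144%, 0.178% and 0.224% of all counts in WT replicates 1, 2 and 3. In sg5 they took 0.150%, 0.141% and 0.161%, and in sg6 0.152%, 0.147% and 0.157%. The knockout libraries therefore lay within or just below the WT range, and WT replicate 3 was highest. With the counts of all ERVL loci summed, the log2 fold change against WT was -0.22 in sg5 (95% interval -0.57 to 0.14, adjusted p = 0.364) and -0.19 in sg6 (95% interval -0.54 to 0.17, adjusted p = 0.501). Between the clones it was -0.03 (95% interval -0.39 to 0.32, adjusted p = 0.945). Without WT replicate 3 the values against WT were -0.04 and -0.01, and with scaling factors taken from TEs alone, a choice made after seeing the data that raised them by 0.20 and 0.19, they were -0.02 and 0.00. The same comparison gave -0.27 and -0.20 for ERVK, -0.16 and -0.14 for ERV1 and -0.23 and -0.19 for ERVL-MaLR, and none of these families passed the test either. In that fit 9.08% of all features were called higher and 9.29% lower in sg5, 6.14% and 6.41% in sg6, and 0.644% and 1.35% between the clones.

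The subfamily sums gave the same picture, with the exception of LTR55. The 103 ERVL subfamilies that passed the filter on low counts had in both clones a median change of -0.19 on the log2 scale, with 83 below zero in sg5 (80.6%) and 82 in sg6 (79.6%). Among all 1007 TE subfamilies tested the shares below zero were 84.3% and 84.6%, and among the 13303 genes tested 46.9% and 48.3%, so lower values were common to TE subfamilies. By edgeR's quasi-likelihood test 1 ERVL subfamily (0.971%) was called in sg5 at an adjusted p below 0.05, 0 in sg6 and 0 between the clones. At an unadjusted p below 0.05 there were 12, 8 and 0, against 129, 94 and 18 of the 1007 TE subfamilies. DESeq2 called 2, 1 and 0, and a fit with replicate numbers as a block called more in both clones. Of all features in the edgeR fit without a block 8.57% were called higher in sg5 and 8.18% lower. In sg6 5.74% were called higher and 5.79% lower. Between the clones the shares were 0.615% and 1.32%.

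**Figure D1:**
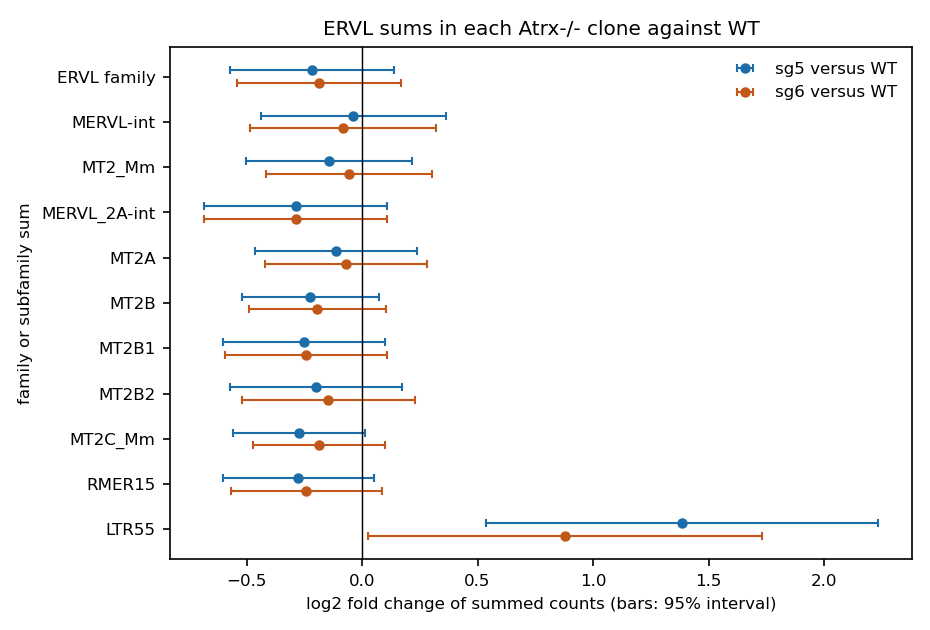
Log2 fold change of summed counts (horizontal axis) for the ERVL family and 10 of its subfamilies (vertical axis), in sg5 (blue) and sg6 (orange) against WT, with 95% intervals as bars. Every interval spans 0 except those of LTR55, whose sums were higher by 1.38 in sg5 and 0.88 in sg6.

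MERVL-int, the internal region of MERVL, summed to 79.4, 107 and 137 CPM in WT replicates 1 to 3, to 94.8, 106 and 115 CPM in sg5 and to 102, 96.1 and 108 CPM in sg6. All knockout values fell inside the WT range, and the WT libraries were spread more widely than either clone. Its log2 fold change was -0.04 in sg5 (SE 0.18, adjusted p = 0.903) and -0.08 in sg6 (SE 0.18, adjusted p = 0.819), and its sign turned to 0.17 and 0.13 without WT replicate 3 and to 0.21 and 0.13 with scaling from TEs alone. MT2_Mm, the LTR of MERVL, stood at 37.0, 48.2 and 59.6 CPM in WT, 40.4, 45.2 and 45.7 CPM in sg5 and 48.4, 43.4 and 47.5 CPM in sg6. On the log2 scale it changed by -0.14 and -0.06 (SE 0.16 for each, adjusted p = 0.568 and 0.866), which became 0.04 and 0.12 without WT replicate 3 and 0.10 and 0.16 with scaling from TEs alone. The number of MERVL-int counts for each MT2_Mm count lay in WT between 2.14 and 2.31, in sg5 between 2.34 and 2.51 and in sg6 between 2.10 and 2.27, a range of 2.10 to 2.51 over all 9 libraries.

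The related MERVL_2A-int, with 74.8, 108 and 130 CPM in WT against 78.1 to 92.3 CPM in the knockouts, had log2 fold changes of -0.29 in both clones (adjusted p = 0.291 and 0.354), and in sg5 it passed the test without WT replicate 1 (-0.48, adjusted p = 0.0417). The LTRs MT2A, MT2B, MT2B1, MT2B2 and MT2C_Mm lay between -0.27 and -0.07, with none called in either clone, and several of them turned above zero with scaling from TEs alone. RMER15, the ERVL subfamily with the most counts, stood at 190, 226 and 285 CPM in WT, and its changes were -0.28 and -0.24 (adjusted p = 0.222 and 0.344). For these abundant subfamilies the 95% intervals, with scaling from genes and TEs together, reached no further than -0.68 and 0.36 on the log2 scale. Scaling from TEs alone raised their changes by 0.20 to 0.25, so that this range holds for the first scaling alone.

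LTR55, a small LTR subfamily, was the 1 sum that passed the test. It had 1.11, 0.927 and 1.84 CPM in WT, 2.75, 3.59 and 3.88 CPM in sg5 and 3.6, 1.44 and 2.16 CPM in sg6. Every sg5 library was above every WT library, whereas sg6 replicate 2 fell among the WT values. The log2 fold change was 1.38 in sg5 (SE 0.38, adjusted p = 0.0354) and 0.88 in sg6 (SE 0.38, adjusted p = 0.186). Of 160 LTR55 loci 28 had a count, and 1 of them, LTR55_dup9, held 57.1% of the subfamily's counts. With that locus taken out the sum changed by -0.12 and -0.14, and the sg5 call was also lost without WT replicate 1 or 2, sg5 replicate 2 or 3, or sg6 replicate 3 (adjusted p = 0.0996, 0.123, 0.0786, 0.0879 and 0.0563).

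Most ERVL copies gave few or no reads. Of the 118581 loci 24178 had a count in any library, and 8197 to 13245 had one in a given library. The filter on low counts passed 1022 loci (0.862% of those listed), which held 38.9% to 44.8% of the ERVL counts. In the subfamily MERVL-int 1032 of 2600 loci (39.7%) had a count and the 10 loci with the most counts held 25.2% of all its counts, and in MT2_Mm 859 of 2667 (32.2%) had one and the top 10 held 24.4%. The large LTR subfamilies were counted at fewer of their copies, with 15.5% of MT2A loci and 17.5% of RMER15 loci. The 100 MERVL-int loci with the most counts held 63.6% of its counts.

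Single loci were called in both directions. In sg5 12 ERVL loci were higher (1.17% of the 1022 tested) and 8 lower (0.783%), against 1.82% and 2.06% of all 56086 features in the fit and 0.638% and 1.11% of the 42783 TE loci tested. In sg6 8 were higher (0.783%) and 10 lower (0.978%), against 1.18% and 1.72% of all features and 0.439% and 0.996% of TE loci. Both clones shared 5 higher loci and 4 lower loci, 0.489% and 0.391% of those tested, against 0.729% and 1.16% of all features and 0.236% and 0.615% of TE loci. Every share of ERVL loci lay below that of all features, and both comparisons used the same WT libraries. In a fit with replicate numbers as a block more ERVL loci were shared by both clones, both higher and lower. The median log2 fold change of the tested ERVL loci was -0.09 in sg5 and -0.10 in sg6, against -0.12 and -0.08 for all TE loci and -0.06 and -0.04 for all features. At 32 loci every knockout library was above every WT library (3.13%, against 2.29% of TE loci and 4.48% of all features) and at 52 every knockout library was below (5.09%, against 4.61% and 5.56%). At an unadjusted p below 0.05 there were 152 of the 1022 ERVL loci in sg5, 105 in sg6 and 71 between the clones. Of the 42783 TE loci there were 5177, 3815 and 2682, and of all 56086 features 9488, 7053 and 4476.

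**Figure D2:**
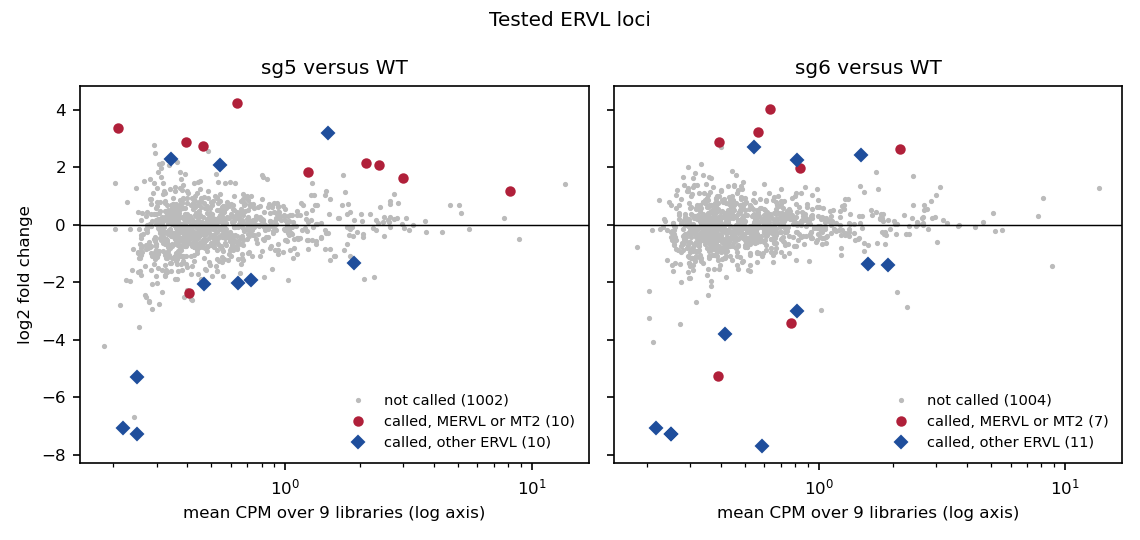
Log2 fold change against WT (vertical axis) and mean CPM over 9 libraries (horizontal log axis) of each of the 1022 tested ERVL loci, in sg5 (left) and sg6 (right), with grey points for loci not called, red circles for called MERVL or MT2 loci and blue diamonds for other called ERVL loci. The called loci lie on both sides of 0, with 10 MERVL or MT2 loci among the 20 called in sg5 and 7 among the 18 called in sg6.

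In all 29 loci were called against WT in at least 1 clone, 15 higher (1.47% of those tested) and 14 lower (1.37%), against 2.27% and 2.62% of all features and 0.841% and 1.49% of TE loci, and 0 moved in opposite directions in the clones. Of the 15 higher loci 8 reached the level of the low-count filter in knockout libraries alone, 2 of these in sg5 alone, and of the 14 lower loci 4 reached it in WT libraries alone. Such loci had to differ to be tested, so that these counts are a description. LTR55_dup9 and MT2_Mm_dup2510 reached that level in 1 WT library. MT2_Mm_dup1760, MERVL_2A-int_dup1052 and LTR33_dup522, which was lower in sg6, reached it in 1 knockout library. The filter asks for 3 libraries, so these loci also passed only with the group where they were higher. Among the 436 tested loci whose names begin with MERVL or MT2, 11 were higher and 3 lower in at least 1 clone. Among the 258 named RMER or RLTR 1 was higher and 5 lower, and among the 328 others 3 were higher and 6 lower. The difference between these name groups was not tested. Fewer loci were called when some WT libraries were left out. Without WT replicate 3 the loci shared by both clones fell to 0 higher and 0 lower, and without WT replicate 2 to 0 higher. The shares of all features called in these refits were not computed, so whether ERVL loci lost more calls than other features was not tested. Of the 18 calls of the 9 shared loci (9 in each clone) 8 held without WT replicate 2. Without WT replicate 3 16 of them could be refitted and 1 held, and without any other single library 13 to 17 of 18 held. The sign of the shared calls was kept in each of these refits. Without WT replicate 3, 5 loci were called higher and 1 lower in sg5, and 2 higher and 2 lower in sg6. Of the calls of all loci named here 30 could be refitted without WT replicate 3 and 4 held, so that most calls in 1 clone were also lost.

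**Figure D3:**
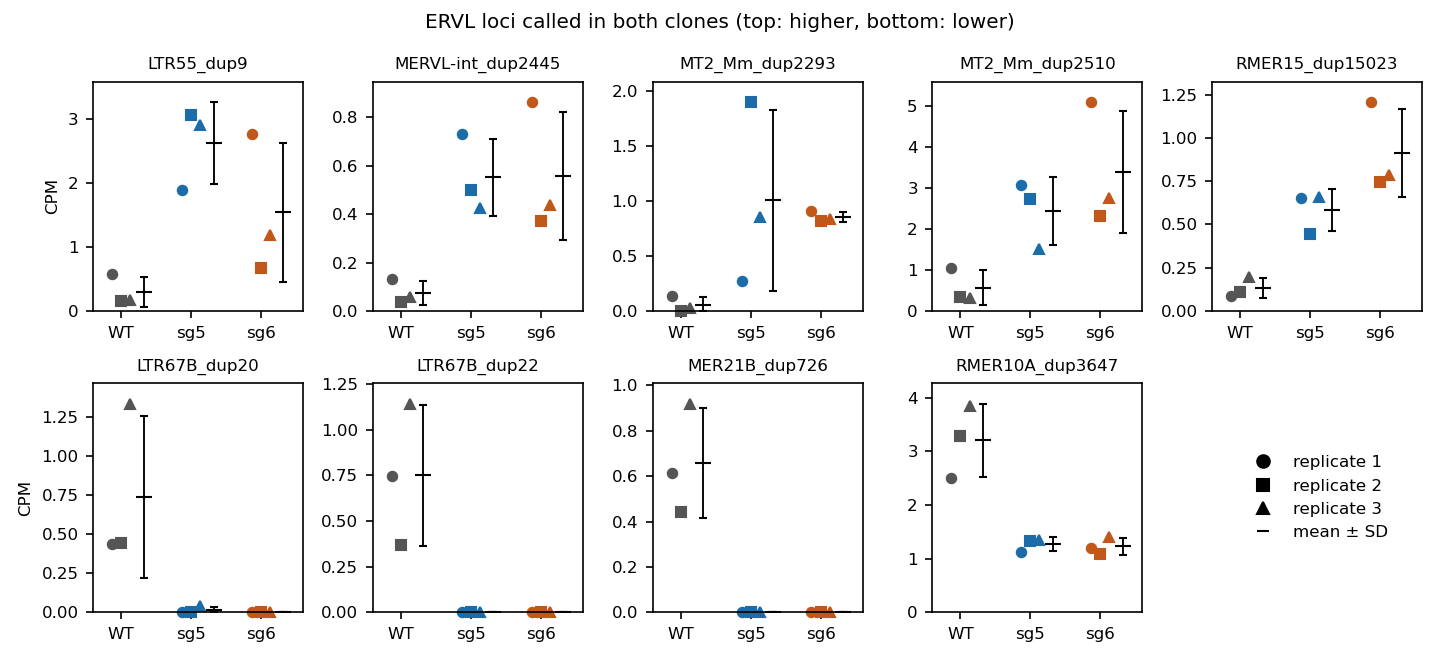
CPM (vertical axes, each from 0) of the 9 ERVL loci called in both clones, by group, with 1 symbol per replicate and the mean and SD (n = 3) beside them; the 5 higher loci are on top and the 4 lower loci below. All 6 knockout libraries lie above the 3 WT libraries in each upper panel and below them in each lower panel, and at LTR67B_dup22 and MER21B_dup726 all 6 are at 0.

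Of the loci higher in both clones, 3 belonged to MERVL. MT2_Mm_dup2510, a MERVL LTR, had 24, 9 and 11 counts in WT, 80, 49 and 39 in sg5 and 118, 62 and 63 in sg6. Every knockout library was above every WT library, and the log2 fold changes were 2.16 (SE 0.49, adjusted p = 0.026) and 2.63 (SE 0.49, adjusted p = 0.00869). MT2_Mm_dup2293, another such LTR, had 3, 0 and 1 counts in WT, 7, 34 and 22 in sg5 and 21, 22 and 19 in sg6, with sg5 replicate 1 nearest to WT. Its log2 fold changes were 4.22 and 4.03 (SE 0.84 for each, adjusted p = 0.0112 and 0.0178). MERVL-int_dup2445, an internal region, had 3, 1 and 2 counts in WT, 19, 9 and 11 in sg5 and 20, 10 and 10 in sg6, which gave 2.88 in both clones (SE 0.64 for each, adjusted p = 0.0214 and 0.0248). The last 2 of these had at most 3 counts in any WT library and passed the filter through knockout libraries alone. MT2_Mm_dup2510 reached the level of the filter in 1 WT library, too few to pass without the knockouts. The adjusted p values of all 3 loci are therefore a description.

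The other loci higher in both clones were LTRs of other ERVL subfamilies. LTR55_dup9, the locus behind the LTR55 sum, rose from 13, 4 and 6 counts in WT to 49, 55 and 75 in sg5 and 64, 18 and 27 in sg6. On the log2 scale the changes were 3.20 (SE 0.58, adjusted p = 0.0059) and 2.43 (SE 0.59, adjusted p = 0.0401). LTR55_dup9 reached the level of the filter in 1 WT library, too few to pass without the knockouts, so that these p values are a description. RMER15_dup15023 had 2, 3 and 7 counts in WT, 17, 8 and 17 in sg5 and 28, 20 and 18 in sg6, with log2 fold changes of 2.08 (SE 0.48, adjusted p = 0.0275) and 2.69 (SE 0.47, adjusted p = 0.00502). The call of RMER15_dup15023 in sg6 was the 1 call of a shared locus that held without WT replicate 3 (log2 fold change 3.12, adjusted p = 0.015). This locus passed the filter through knockout libraries alone, so that it had to differ, and its adjusted p values are a description.

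The loci lower in both clones held no MERVL copy. LTR67B_dup22 had 17, 10 and 41 counts in WT and 0 in all 6 knockout libraries, which with 3 counts per library as the floor puts sg5 at least 5.66-fold and sg6 at least 6.05-fold below WT (adjusted p = 0.0154 and 0.0167). MER21B_dup726 likewise had 14, 12 and 33 counts in WT and 0 in the knockouts, at least 4.95-fold and 5.3-fold lower (adjusted p = 0.0183 and 0.0199). LTR67B_dup20 had 10, 12 and 48 counts in WT, 1 count in sg5 replicate 3 and 0 in the other 5 knockout libraries. These 3 loci were therefore counted in WT and hardly at all in either clone. All 3 passed the filter through the WT libraries alone, so that they had to differ, and their adjusted p values are a description. For LTR67B_dup20 the ratio of summed counts, WT over sg5, was 56.9 (95% exact interval of counting error 9.88 to 2279), and in sg6 it was at least 5.95-fold lower (adjusted p = 0.0196 and 0.0115). RMER10A_dup3647 was the 1 shared lower locus with reads in all libraries, at 57, 89 and 138 counts in WT, 29, 24 and 35 in sg5 and 28, 29 and 32 in sg6. On the log2 scale the changes were -1.34 and -1.39 (SE 0.28 for each, adjusted p = 0.0159 and 0.015).

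Within MERVL-int 5 of the 69 tested loci were called in at least 1 clone, all higher, and the sum of the subfamily was not called. Of all tested ERVL loci, these 5 included, 1.47% were called higher and 1.37% lower, and of all features 2.27% and 2.62%. Among the 5, MERVL-int_dup2445 and MERVL-int_dup1625 passed the filter through knockout libraries alone. The count is therefore a description. MERVL-int_dup603, the MERVL-int locus with the most counts, had 134, 127 and 131 counts in WT, 334, 175 and 240 in sg5 and 291, 187 and 174 in sg6. Every knockout library was above every WT library, and the log2 fold change was 1.17 in sg5 (SE 0.27, adjusted p = 0.0249) and 0.94 in sg6 (SE 0.27, adjusted p = 0.0922). The call in sg5 held in 6 of 9 refits that each left out 1 library. It was lost without WT replicate 2 or 3 or sg5 replicate 1 (adjusted p = 0.108, 0.135 and 0.0601). MERVL-int_dup2195 went from 0.92 to 2.14 CPM in WT to 2.73 to 5.49 CPM in sg5 (log2 fold change 1.62, adjusted p = 0.0207), with 2.63 to 3.59 CPM in sg6 (1.02, adjusted p = 0.205). MERVL-int_dup1367 stood at 0.35 to 0.78 CPM in WT and 2.01 to 2.32 CPM in sg5 (1.83, adjusted p = 0.00695), and sg6 lay at 0.775 to 1.14 CPM (0.63, adjusted p = 0.511). These 2 loci were chosen after their values were seen, to complete the 5.

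MERVL-int_dup1625 was called in sg6, where it had 32, 19 and 36 counts against 3, 2 and 6 in WT, a log2 fold change of 3.21 (SE 0.55, adjusted p = 0.00437) that passed under all 18 alternatives refitted. It passed the filter through knockout libraries alone, so that it had to differ, and its adjusted p and the count of alternatives are a description. In sg5 it had 4, 9 and 11 counts (1.44, adjusted p = 0.243), and the 2 clones were not called different (adjusted p = 0.241). The 5 called loci together held 5.10% to 8.72% of the MERVL-int counts of WT libraries, against 15.2% to 18.8% in sg5 and 11.8% to 17.0% in sg6, a description of loci chosen for their rise. The tested loci of the subfamily, these 5 included, went both ways. Of all 69, 33 had a log2 fold change above zero in sg5 and 31 in sg6, and the medians were -0.01 and -0.06.

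**Figure D4:**
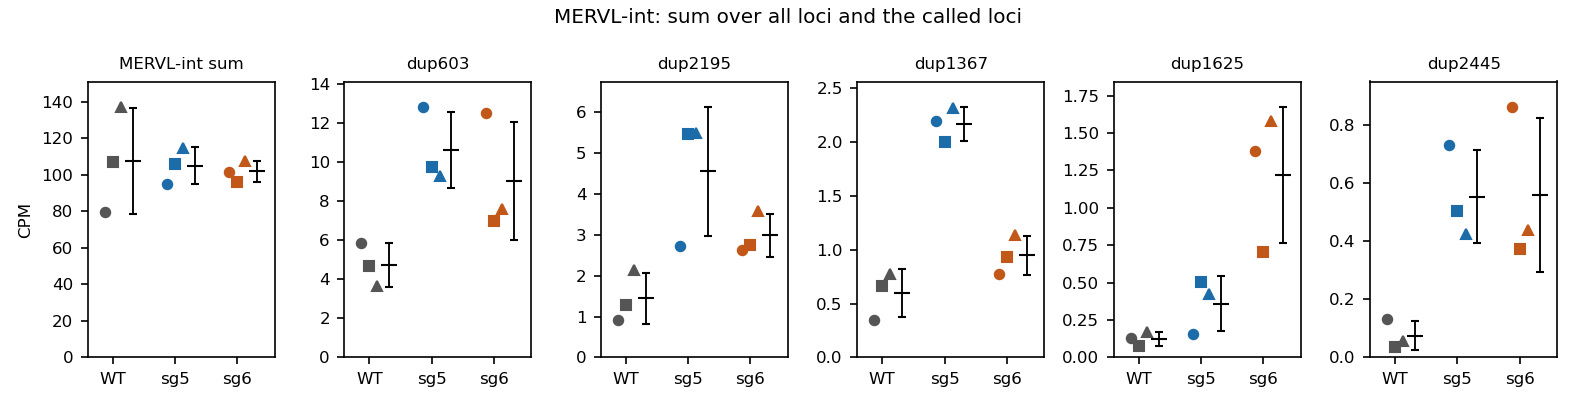
CPM (vertical axes, each from 0) of MERVL-int summed over all its loci and of its 5 called loci, by group, with circles, squares and triangles for replicates 1, 2 and 3 and the mean and SD (n = 3) beside them. The knockout libraries of the sum lie between 94.8 and 115 CPM, inside the WT range, while the knockout libraries of dup603, dup2195 and dup2445 lie above the WT libraries.

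Some loci were called in 1 clone. In sg5 alone the largest rises were those of the LTRs MT2B_dup13190, MT2B1_dup4487 and MLT2B3_dup204. MT2B_dup13190 had 1, 2 and 1 counts in WT, 15, 11 and 11 in sg5 and 1 in each sg6 library, and its log2 fold change in sg5 was 3.37 (SE 0.82, adjusted p = 0.035). It passed the filter through the sg5 libraries alone, so that it had to differ, and its call was lost in each of the 9 refits that left out 1 library. The clones differed by 3.55 there, but with an adjusted p of 0.128. MT2B1_dup4487 and MLT2B3_dup204 rose by 2.74 and 2.28 in sg5 (adjusted p = 0.0154 and 0.0345), with 1.72 and 1.09 in sg6 (adjusted p = 0.202 and 0.495). Their calls in sg5 held in 6 and 3 of 9 such refits, and they passed the filter through knockout libraries alone, MLT2B3_dup204 through sg5 alone. The adjusted p values of these 3 higher loci are a description. Of the 4 loci lower in sg5 alone the largest falls were those of the internal regions MERVL_2A-int_dup1052 (-2.37), RMER15-int_dup2670 (-2.06) and ERVL-int_dup137 (-2.02), with adjusted p values of 0.0341, 0.0406 and 0.0428. These calls held in 3, 1 and 2 of 9 refits without 1 library. MERVL_2A-int_dup1052 reached the level of the filter in 1 knockout library, too few to pass without WT, so that its adjusted p is a description. The other was the LTR MER21B_dup1255, named after its values were seen, at -1.92 in sg5 (adjusted p = 0.0135) and -0.26 in sg6 (adjusted p = 0.848). The 3 higher loci and the 3 internal regions had changes of the same sign in sg6 except MT2B_dup13190 (-0.18), and 0 of these 6 differed between the clones at an adjusted p below 0.05.

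In sg6 alone LTR67B_dup606 and MT2C_Mm_dup1845 were higher besides MERVL-int_dup1625, by 2.26 and 1.96 (adjusted p = 0.0483 and 0.0225), with 1.67 and 1.58 in sg5 (adjusted p = 0.148 and 0.0636). Their calls in sg6 held in 3 and 6 of 9 refits without 1 library. LTR67B_dup606 passed the filter through knockout libraries alone, so that its adjusted p values are a description. Of the lower loci, RMER15_dup4637 had 16, 26 and 49 counts in WT, 16, 15 and 21 in sg5 and 0 in all 3 sg6 libraries. Its sg6 level was at least 8.12-fold below WT (adjusted p = 0.000345), whereas its change in sg5 was -0.44 (SE 0.40, adjusted p = 0.648). It was the 1 ERVL locus called between sg5 and sg6 (adjusted p = 0.00341, 0.0978% of those tested, against 0.216% of all features and 0.103% of TE loci above, and 0.275% and 0.0514% below). MT2_Mm_dup1760, a MERVL LTR, had 11, 20 and 32 counts in WT, 2, 7 and 23 in sg5 and 0, 0 and 1 in sg6. The ratio of its summed counts, WT over sg6, was 53.5 (95% exact interval of counting error 9.25 to 2145, adjusted p = 0.0144), and the clones were not called different (adjusted p = 0.134). MT2_Mm_dup1760 reached the level of the filter in 1 knockout library, too few to pass without WT, so that its adjusted p values are a description. RMER15_dup3976 fell by 3.79 in sg6 (adjusted p = 0.0171), with -2.59 in sg5 (adjusted p = 0.0567). It passed the filter through the WT libraries alone, so that these p values are a description. Without 1 library the sg6 calls of RMER15_dup4637, MT2_Mm_dup1760 and RMER15_dup3976 held in 9, 8 and 6 of 9 refits.

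Of the 5 ERVL loci of highest mean CPM, uncorrected for length, 1 was called, MERVL-int_dup603. RLTR28_dup186 had 175, 170 and 232 counts in WT, 204, 257 and 824 in sg5 and 263, 273 and 626 in sg6. Replicate 3 was by far the highest in each clone, all knockout libraries were above WT in CPM, and the log2 fold changes of 1.41 and 1.26 did not pass (SE 0.45 for each, adjusted p = 0.111 and 0.212). MT2B_dup8233 had 8.28, 16.7 and 13.5 CPM in WT, 4.39 to 11.5 CPM in sg5 and 3.14 to 6.07 CPM in sg6, with changes of -0.51 and -1.44 (adjusted p = 0.518 and 0.0524). RMER15_dup62 stood at 0.22 and 0.30 (adjusted p = 0.694 and 0.682), and MERVL_2A-int_dup3653 at -0.15 and -0.19 (adjusted p = 0.815 and 0.838).

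The genes that act around MERVL were then examined, first the activators and 2C genes. The 43 genes of these lists included 39 in the tables, of which 9 passed the filter in rRNA-depleted and 19 in polyA libraries. Called as log2 fold change beyond 1 with adjusted p below 0.05, 5 of 9 were lower in both clones and 0 higher in either in rRNA-depleted libraries, where 2.62% of genes were lower in both clones and 1.36% higher, and 3.04% and 2.16% were higher in sg5 and in sg6. In polyA libraries 7 of 19 were lower in both and 0 higher in either, where 5.48% of genes were lower in both and 2.18% higher, and 3.18% and 3.64% were higher in sg5 and in sg6. Of these lower genes Dppa2, Sp110 and Ddit4l in rRNA-depleted and Dppa4 in polyA libraries passed the filter through the WT libraries alone and had to differ there. Gm2022 reached the level of the filter in 1 rRNA-depleted library of each clone, too few to pass without WT, so that its adjusted p values there are a description. In neither kind was a listed gene higher at an unadjusted p below 0.05 (0 genes), and DESeq2 called 0 higher in both clones and 5 and 8 lower. The list did not fall as a whole, since in polyA libraries the highest log2 fold changes were 1.42 in sg5 and 1.68 in sg6. Without sg6 replicate 1, 1 listed gene was called higher in both clones there. The 30 and 20 listed genes that were not tested, among them Zscan4a, Zscan4d, Zfp352, Tcstv1 and Tdpoz1, had mean levels of at most 0.372 and 0.124 CPM over the 9 libraries.

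Dppa2, which with its partner Dppa4 opens the way for Dux and 2C transcription, was lower in both clones in both kinds of library. Its counts in rRNA-depleted libraries were 27, 39 and 57 in WT and 0 in all 6 knockout libraries, which puts sg5 at least 10.6-fold and sg6 at least 11.3-fold below WT (adjusted p = 0.00067 and 0.000675, as a description). In polyA libraries, where the level of the filter was also reached in 2 libraries of each clone, it went from 2.65, 3.30 and 3.14 CPM in WT to 0.133 to 0.174 CPM in sg5 and 0.0296 to 0.195 CPM in sg6, with log2 fold changes of -4.23 and -4.59 (adjusted p = 6.3e-05 and 6.59e-05). Dppa4, its neighbour on chromosome 16 (48283733 to 48294237 for Dppa4 and 48303908 to 48319723 for Dppa2, both plus strand, GRCm38), was tested in polyA libraries alone. It had 10, 14 and 8 estimated counts in WT, 0, 1 and 3 in sg5 and 0 in sg6 (adjusted p = 0.0036 and 0.00543), at least 4.71-fold lower in sg6. Of their transcripts' distinct 31-base words 33.8% for Dppa2 and 40.1% for Dppa4 also occur in transcripts of other genes, which bears on how reads were assigned.

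Sp110, a nuclear body protein gene (chromosome 1, 85576899 to 85598817, minus strand), had 122, 104 and 200 counts in WT, 1, 0 and 4 in sg5 and 0, 1 and 0 in sg6 (adjusted p = 3.47e-05 and 1.67e-05, as a description). It shares 55.5% of its 31-base words with other genes and is overlapped on the opposite strand by G530012D18Rik, and whether counting used strand was not stated in the sources. In polyA libraries, all 9 of which reached the level of the filter, the log2 fold changes were -3.07 and -3.92 (adjusted p = 0.000163 and 5.43e-05). Ddit4l, an inhibitor of mTOR signalling (chromosome 3, 137621612 to 137628333, plus strand), had 37, 37 and 96 counts in WT, 1, 1 and 0 in sg5 and 0, 3 and 2 in sg6, with polyA changes of -2.51 and -1.63 (adjusted p = 0.00128 and 0.00931), again with all 9 libraries at the level of the filter. Both genes are also known from cells other than the 2-cell embryo, Sp110 from interferon-treated cells and Ddit4l from muscle. Tdpoz4, a TD and POZ domain gene of the early embryo (chromosome 3, 93796398 to 93797510, plus strand), fell by 2.98 and 3.92 in polyA libraries (adjusted p = 8.56e-05 and 4e-05) and had at most 3 counts in any rRNA-depleted library.

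Gm5662, Gm2022 and Gm8300, copies of a gene cluster on chromosome 12 that is active in the 2-cell embryo, completed the genes called lower. Gm5662 had 18.7, 15.2 and 25.5 CPM in WT, 5.04 to 6.18 CPM in sg5 and 1.72 to 3.46 CPM in sg6 in rRNA-depleted libraries, with log2 fold changes of -1.84 and -3.03 (adjusted p = 0.00117 and 3.85e-05). Between the clones it was called in polyA libraries, higher in sg5 (1.54, adjusted p = 0.0346), where 1.36% of genes were higher and 1.25% lower. Gm2022 was called in rRNA-depleted libraries (-2.66 and -2.35, adjusted p = 0.00967 and 0.0201), and in polyA libraries its values were -1.17 and -2.11 (adjusted p = 0.0983 and 0.0116). Its rRNA-depleted call in sg6 was lost without WT replicate 1 or 3 or sg6 replicate 1 or 3. Gm8300 was called in polyA libraries (-1.52 and -2.61, adjusted p = 0.0174 and 0.00163), and in rRNA-depleted libraries its values were 0.00 and -2.36 (adjusted p = 0.999 and 0.109). Since 89.1%, 100% and 44.0% of the 31-base words of Gm5662, Gm2022 and Gm8300 occur in other genes, the 3 are uncertain as separate genes.

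**Figure D5:**
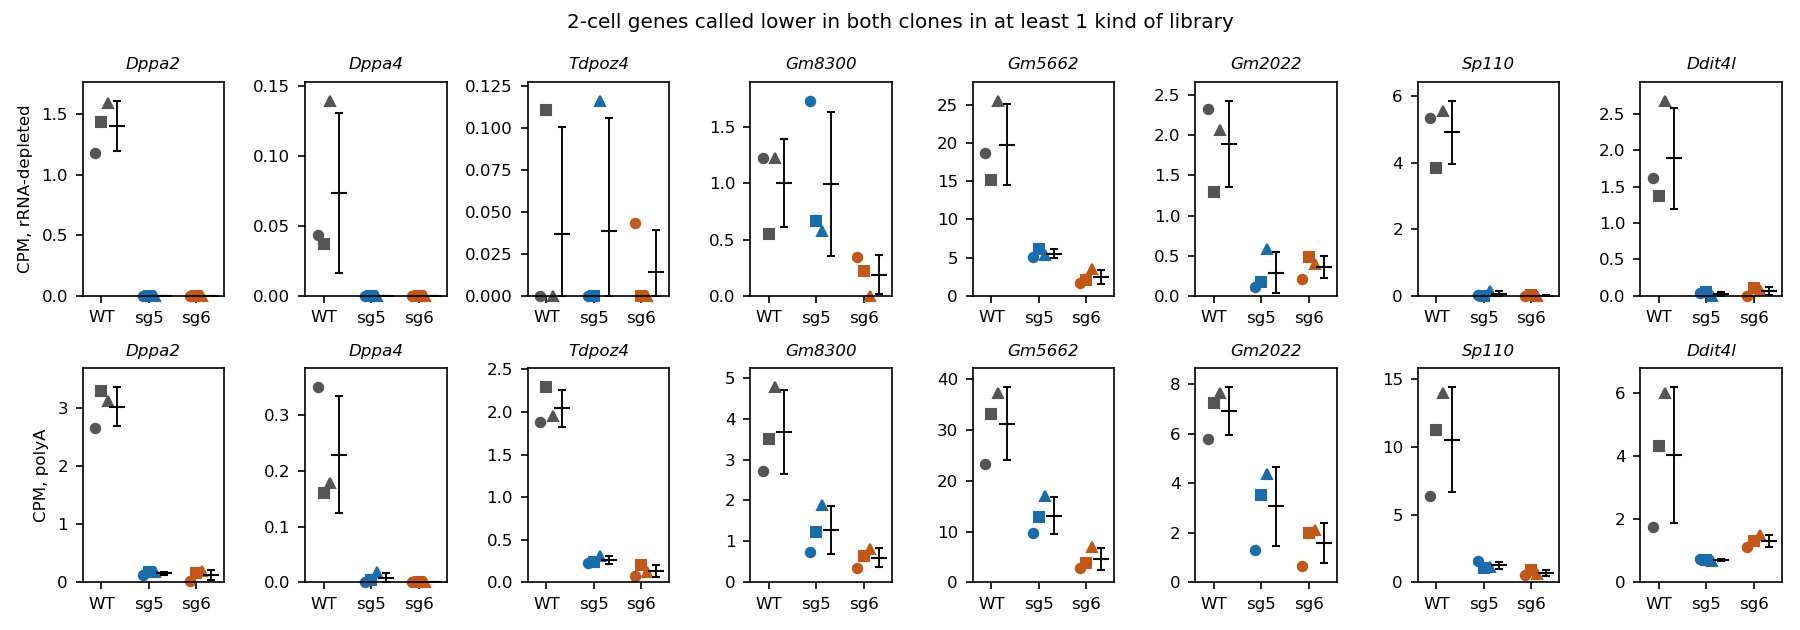
CPM (vertical axes, each from 0) of the 8 activator and 2C genes called lower in both clones in at least 1 kind of library, in rRNA-depleted (top) and polyA (bottom) libraries, with circles, squares and triangles for replicates 1, 2 and 3 and the mean and SD (n = 3) beside them. Dppa2 is at 0 in all 6 rRNA-depleted knockout libraries, and in the polyA panels all 6 knockout libraries of each gene lie below the WT libraries.

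Of the 8 genes, 3 had a promoter (250 bases before to 50 after the start) in the RefSeq set for GRCm38.p6, and the 2 with most and fewest CG dinucleotides are shown because genes that fell together differed there. CG dinucleotides, the sites of DNA methylation, are in capitals, read 5′ to 3′ on the plus strand, at chr3:137623422-137623721 for Ddit4l and chr3:93796148-93796447 for Tdpoz4.
Ddit4l: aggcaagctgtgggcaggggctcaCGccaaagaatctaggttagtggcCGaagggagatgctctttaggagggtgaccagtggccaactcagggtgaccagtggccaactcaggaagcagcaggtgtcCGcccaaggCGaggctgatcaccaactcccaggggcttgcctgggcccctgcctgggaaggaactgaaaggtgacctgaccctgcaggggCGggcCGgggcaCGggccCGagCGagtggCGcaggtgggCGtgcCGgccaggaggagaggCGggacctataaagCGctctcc
Tdpoz4: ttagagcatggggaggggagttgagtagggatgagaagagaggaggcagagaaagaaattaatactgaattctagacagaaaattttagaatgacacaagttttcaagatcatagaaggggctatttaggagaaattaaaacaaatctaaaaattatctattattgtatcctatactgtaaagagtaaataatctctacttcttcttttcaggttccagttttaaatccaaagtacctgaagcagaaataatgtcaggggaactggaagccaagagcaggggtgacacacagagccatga
The Ddit4l promoter holds 14 CG, a number that 36.3% of the 32851 promoters of this length reach or exceed, and the Tdpoz4 promoter holds 0, where the median promoter holds 7. No sequence is shown for the ERVL loci, which the count table names without coordinates.

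No listed repressor of MERVL was called in both clones other than Atrx, the gene knocked out. Of 30 listed genes 29 were tested in each kind of library, and Atrx was the 1 gene called in either clone, lower in both. By the same rule, sg5 had 3.04% of all tested genes higher and 4.31% lower in rRNA-depleted libraries. For sg6 these shares stood at 2.16% and 3.59%. PolyA libraries gave 3.18% and 6.96% for sg5, then 3.64% and 7.54% for sg6. At such shares a list of 29 genes would hold few calls, so the lack of others is a description. The median log2 fold change of the tested repressors was -0.05 in sg5 and -0.09 in sg6 in rRNA-depleted libraries. In polyA libraries it was 0.02 and -0.06. Setdb1, which methylates H3K9 at retroviruses, stood at -0.05 and -0.09, Trim28, its recruiter, at 0.07 and -0.08, and Kdm1a, which encodes LSD1, at 0.11 and 0.06. Chaf1a of the CAF-1 complex stood at -0.02 and -0.10, and Daxx, the partner of ATRX, at 0.01 and -0.09, and the lowest adjusted p of these 5 genes was 0.755. Zmym2, a zinc finger corepressor, was higher by 0.73 in sg5 (adjusted p = 0.0211), under the fold threshold, with 0.51 in sg6 (adjusted p = 0.138). Max, a partner of MYC and MGA, was higher by 0.77 in sg6 (adjusted p = 0.013), also under that threshold, with 0.51 in sg5 (adjusted p = 0.0868).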

How the data were processed

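RNA was measured in undifferentiated C3H/10T1/2 cells, in 9 rRNA-depleted and 9 polyA libraries, 3 per group. For the rRNA-depleted libraries the authors deposited counts per gene and per TE locus, made with STAR 2.27.10a per the labels, keeping reads with many alignments, and TElocal, which shares such reads among loci, on mm10. For the polyA libraries the authors deposited estimated counts per gene from Salmon 0.8.2, which were rounded to whole numbers here. Use of strand is not given in the sources used here. The polyA totals were 27544833 to 235346363. Locus counts were also summed by subfamily and family. edgeR 4.0.16 (R 4.3.3) fitted each table with TMM scaling, its filter on low counts (minimum count 10) and the quasi-likelihood test over 3 groups of 9 libraries without a block, and p-values were adjusted by Benjamini-Hochberg over all features of the fit. CPM is the count scaled to a common library total with the TMM factors. A TE was called at an adjusted p below 0.05, and a gene also needed a log2 fold change beyond 1. Intervals of count ratios are exact 95% intervals and, like the floor of 3 counts, cover counting error only. Scripts were tested on simulated counts. Alternatives were DESeq2 1.42.0, other scalings, filters, samples and thresholds, a replicate block and leaving out each library. Replicates of a group differed beyond counting noise in all 9 pairs. Named loci were those called in both clones, the 3 highest and 3 lowest called in 1 clone, and the 5 of highest mean CPM. Named subfamilies were those of MERVL and MT2, those called, and the 5 of highest mean CPM. Named genes were Atrx and listed activators, 2C genes and repressors called in both clones. Other repressors and markers are given as examples of their lists. The members and lists were chosen with earlier results of these data known.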

Additional observations from a re-analysis of the deposited data

Results flagged for a closer look

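The clones differed at 1 ERVL locus. RMER15_dup4637 had 16, 15 and 21 counts in sg5 and 0 in the 3 sg6 libraries, a fitted log2 difference of 7.26 (edgeR's quasi-likelihood test, adjusted p = 0.00341) that depends on the prior count and is no bound, and it passed in all 18 alternatives refitted.

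Among the listed genes, Gm5662 was higher in sg5 than in sg6 in polyA libraries by 1.54 on the log2 scale (adjusted p = 0.0346), at 9.71, 12.8 and 16.9 CPM against 2.83, 3.79 and 7.03 CPM. In rRNA-depleted libraries the difference was 1.19 (adjusted p = 0.111).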

How the results depend on the processing

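Counts of called ERVL loci moved with the settings. The shares of all features called under these and the following settings were not computed, so that the counts show only how the calls moved. DESeq2 called 20 loci higher in sg5, 13 higher in sg6, 10 higher in both and 3 between the clones, and 2 and 1 subfamilies in sg5 and sg6. Without the low-count filter 19 were higher and 18 lower in sg5, 18 higher and 26 lower in sg6, 14 lower in both and 4 differed between the clones, with 1 subfamily in sg6. With at least 10 counts in every library 3 were higher and 4 lower in sg5, 0 higher and 2 lower in sg6, 0 higher and 2 lower in both and 0 between the clones, with 1 listed 2C gene lower in rRNA-depleted and 4 in polyA libraries. Adjusted over TE loci alone 5 were higher and 4 lower in sg5, 5 higher in sg6 and 1 higher in both. Fitting only the groups compared called 1 subfamily in sg6. Without the top locus of each subfamily 0 subfamilies were called in sg5, and LTR55 turned to -0.12 and -0.14.

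With scaling from TEs alone, chosen after seeing the data, 2 loci differed between the clones, and signs turned for the ERVL sum in sg6 (0.000498), MERVL-int (0.21 and 0.13), MT2_Mm (0.10 and 0.16), MT2A (0.13 and 0.14), MT2B in sg6 (0.0015), MT2B2 (0.034 and 0.066) and MT2C_Mm in sg6 (0.0099). The cause was not tested.

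Leaving out 1 library gave 3 to 14 loci higher and 1 to 13 lower in sg5, 2 to 12 higher and 2 to 17 lower in sg6, 0 to 6 higher and 0 to 7 lower in both, and 1 to 2 between the clones. It gave 0 to 3 subfamilies in sg5 and 0 to 1 in sg6, and 0 to 1 listed 2C gene higher in both clones in polyA libraries. The log2 difference of the ERVL sum between the clones ran from -0.10 to 0.018. MERVL-int ran from -0.22 to 0.17 and from -0.26 to 0.13, MT2_Mm from -0.30 to 0.036 and from -0.21 to 0.12, MT2A from -0.25 to 0.091 and from -0.20 to 0.13, and MT2B2 in sg6 from -0.29 to 0.042.

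Replicate numbers were not taken to pair libraries, since in the locus, subfamily and polyA fits 1 of the 9 correlations of same-numbered deviations each was under 0.1 (0.0437, -0.19 and 0.037). Their means were 0.178, 0.337 and 0.389, against -0.088, -0.164 and -0.185 for different numbers, a hint from the data that numbers share something. A low value in 1 of 9 pairs does not show that they share nothing. Deviations from a group's mean cancel over its replicates, so that the negative means are no separate evidence. With the replicate block 19 loci were lower in sg5, 13 higher in sg6, 10 higher and 8 lower in both and 2 between the clones, with 5 and 2 subfamilies in sg5 and sg6. Of 1535 values of named items, 1355 kept direction and side of the threshold, 142 lost it, 18 gained it and 20 changed sign. Most ERVL loci had too few counts to be tested.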
